A study of Homo sapiens with 12 samples.

Results

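The effect of passaging on gene expression was followed from Day 12 to Day 16 of cardiac differentiation, in cultures of H1, a line of human embryonic stem cells, that were passaged and left without a WNT inhibitor (P-DF) and in cultures that stayed static with the inhibitor IWP2 (NP-IWP2). The question put to every gene was whether the difference of P-DF from NP-IWP2 cells on Day 16 was the same as on Day 12. The 8 libraries of these groups were used out of 12 in the series, with 2 libraries in each of 4 groups. All cells carried the wild-type genotype and were brought to mesendoderm progenitors with the WNT activator CHIR99021. NP-IWP2 cells then received IWP2, which blocks the secretion of WNT ligands, from Day 2 to Day 4 and were never detached. P-DF cells, labelled as the passaged control, were detached on Day 2, replated and left to differentiate spontaneously in DF medium. The 4 remaining libraries came from cells that were passaged and also given IWP2 (P-IWP2). Passaging and IWP2 thus both set the groups apart, and what is called the passaging effect below cannot be told apart from the absence of IWP2. The paper also describes the ROCK inhibitor Y27632 in the medium used for passaging, and replating at split ratios that mostly diluted the cells. A part of this inhibitor or of cell density in the passaging effect cannot be told apart either.

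Cardiomyocytes of the early embryo express a fetal set of contractile proteins and later exchange part of it. The slow skeletal troponin I gene TNNI1 is joined by the cardiac gene TNNI3, the alpha myosin heavy chain gene MYH6 gives way to MYH7 in human ventricle, and calcium store proteins such as phospholamban (PLN) and calsequestrin (CASQ2) accumulate as the sarcoplasmic reticulum develops. WNT, BMP, TGF-beta and retinoic acid signals act in turn during heart formation, and their own ligands, receptors and target genes are switched on and off as cells leave the progenitor state.

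The libraries held 14885589 to 19079533 counted reads, so that 3 counts, the limit that a count of 0 allows, stood for 0.157 to 0.202 CPM, counts scaled to the library total (counting error only). The 2 libraries of a group correlated at 0.985 to 0.992 across genes. The labels do not say that libraries of a group came from separate cultures, so all p-values measure only the spread between these samples. Of 8 cardiomyocyte markers (ACTN2, MYH6, MYH7, MYL7, NKX2-5, RYR2, TNNT2 and TTN) none was at 0 in any library. Their summed level was 4376 to 4971 FPKM in NP-IWP2 and 4428 to 4594 FPKM in P-DF cells on Day 12, and 2635 to 3263 against 6515 to 6980 FPKM on Day 16. This sum was mostly MYL7 and MYH6 on Day 12 and mostly MYL7 and MYH7 on Day 16, so it follows these genes rather than all 8 markers. Fibroblast, hepatic and epicardial markers were mostly found in NP-IWP2 cells, as were endothelial markers other than KDR. Smooth muscle markers were found in both. The sum of 4 smooth muscle markers was 143 to 181 FPKM in NP-IWP2 and 228 to 248 FPKM in P-DF cells on Day 12 and 207 to 433 against 229 to 338 FPKM on Day 16. The sum of 7 endothelial markers, mostly KDR, was 188 to 206 against 163 to 226 FPKM and then 53.7 to 54.1 against 14.8 to 16.9 FPKM. Of these 7 markers, 6 were called lower in P-DF cells on Day 12 (17.4% of all genes were) and 7 on Day 16 (22%). The sum of 7 fibroblast markers was 783 to 794 FPKM in NP-IWP2 cells on Day 12 and 1361 to 1385 FPKM on Day 16, and 32.8 to 41.9 and 23.9 to 28.1 FPKM in P-DF cells. The sum of 9 hepatic and endoderm markers went from between 396 and 554 FPKM to between 675 and 821 FPKM in NP-IWP2 cells, and was 5.96 to 6.4 FPKM and later 14.2 to 14.9 FPKM in P-DF cells, where 3 of the markers were at 0 in both libraries of Day 12 and 1 in both of Day 16. The sum of 7 epicardial markers was 40.3 to 61.4 FPKM and later 69.6 to 99.5 FPKM in NP-IWP2 cells and stayed under 1 FPKM in P-DF cells. The part of these other cells in the results below was not tested, and in bulk RNA fewer cells of a type and less RNA per cell cannot be told apart.

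Of 18871 genes tested, 2380 (12.6%) had an effect of passaging that was not the same on Day 12 and Day 16, of which 1091 (5.78% of all genes) were more positive on Day 16 than on Day 12 and 1289 (6.83%) more negative. A gene was called when edgeR's quasi-likelihood test gave a Benjamini-Hochberg adjusted p under 0.05 for the difference of the log2 fold changes. At an unadjusted p under 0.05, 5186 genes passed. For comparison, the effect on its own was called for 5457 genes (28.9%) on Day 12 and for 7328 genes (38.8%) on Day 16. The median log2 difference between the days over all genes was -0.022. With libraries scaled to their total counts this median was -0.154, and 28.3% of the calls in place of 45.8% were positive. The number of calls rested on the libraries used. It was 94 when all 12 libraries shared one estimate of the spread, and 1564 when the Day 12 library labelled Pass-IWP2 5 was left out of those 12. This library correlated at 0.915 with its replicate and is no part of the comparison. It was also lower when some single libraries were left out, with 1119 calls without NP-IWP2 replicate 1 and 1218 without replicate 2 of Day 12, and with 1481 calls without P-DF replicate 3 and 1142 without replicate 4 of Day 16. Leaving out one of the other libraries gave 1769 to 2664 calls, the most without NP-IWP2 replicate 1 of Day 16. Whatever the call, the sign of the difference was kept by all of the 2380 genes that each other fit tested, save 1 gene without P-DF replicate 3 of Day 16. The genes were selected in these same libraries, which the fits largely share, so a kept sign is no independent support.

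The 2380 genes were sorted by what the comparison found on each single day. In 1056 genes (44.4% of the 2380) the effect appeared, that is, P-DF and NP-IWP2 cells differed on Day 16 and the test was not passed on Day 12. In 483 genes (20.3%) it faded, being called on Day 12 and not on Day 16. It reversed in 202 genes (8.49%), which were called on both days in opposite directions. In 485 genes it grew and in 106 it shrank without a change of direction, and 48 genes were called on neither day alone. The genes that appeared were split almost evenly, with 531 more positive and 525 more negative, as were those that reversed (102 and 100) and faded (248 and 235), whereas 365 of the 485 that grew became more negative. When an absolute log2 fold change of at least 1 was asked for on a day in place of a call, 668 genes appeared, 259 faded and 67 reversed. Nearest to the threshold were CCNL1, RND3 and TRIM16 inside it, all with an adjusted p of 0.0499, and MCTP2, ADAMTS9 (both 0.05) and SLFNL1 (0.0501) outside it.

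**Figure D1:**
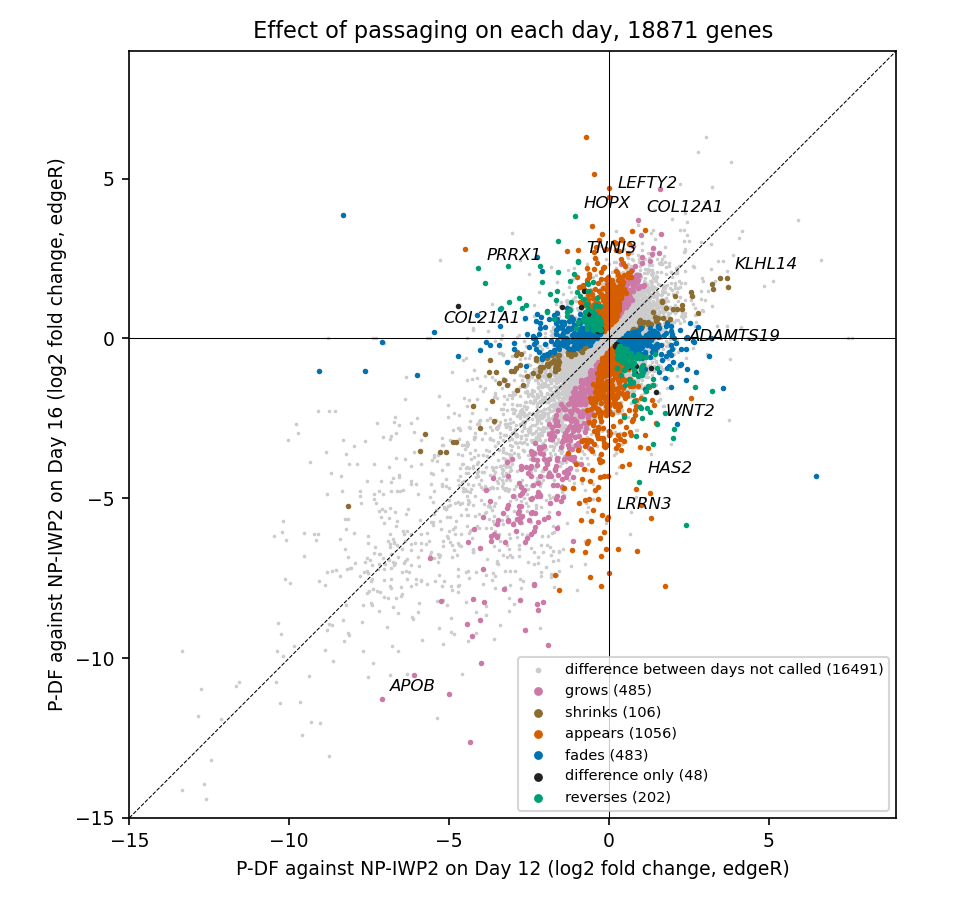
Log2 fold change of P-DF against NP-IWP2 cells on Day 12 (horizontal) and on Day 16 (vertical) for each of 18871 genes, 2 libraries a group. Colors give the class of the 2380 genes called for a difference between the days, grey points are the other genes, and the dashed line marks equal effects; reversing genes such as HOPX and HAS2 lie in the upper left and lower right, fading genes such as COL21A1 along the horizontal line and appearing genes such as LRRN3 along the vertical line.

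More genes changed with time in the passaged cells. From Day 12 to Day 16, 6946 genes (36.8% of those tested) changed in P-DF cells and 4877 (25.8%) in NP-IWP2 cells. Among the 2380 genes, 1217 (51.1%) changed with time in P-DF cells and did not pass the test in NP-IWP2 cells, 447 (18.8%) did so in NP-IWP2 cells only, 398 changed the same way in both, 262 changed in opposite directions and 56 passed in neither. These fits use the same libraries as the comparison between the days and describe it further. Of the 102 genes that reversed upwards, 47 rose in P-DF cells with no call in NP-IWP2 cells, 20 rose in P-DF cells while they fell in NP-IWP2 cells, 24 rose in both and 11 fell in NP-IWP2 cells alone. Of the 100 that reversed downwards, 42 fell in P-DF cells alone, 29 fell in P-DF cells while they rose in NP-IWP2 cells, 18 fell in both, 10 rose in NP-IWP2 cells alone and 1 rose in both.

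Genes of contractile cells were among those that reversed upwards, being lower in P-DF cells on Day 12 and higher on Day 16. TNNI3 (ENSG00000129991, chr19:55151767-55157773) encodes cardiac troponin I, the inhibitory subunit of the thin filament. It was at 7.74 and 8.14 FPKM in the NP-IWP2 libraries and at 4.59 and 3.11 FPKM in the P-DF libraries on Day 12, and at 9.15 and 4.31 against 32.4 and 31.2 FPKM on Day 16. The groups did not overlap on either day, and the NP-IWP2 libraries of Day 16 were far apart. The log2 fold change of P-DF against NP-IWP2 went from -0.97 ± 0.29 (SE, n = 2 and 2, edgeR adjusted p = 0.0248) to 2.42 ± 0.26 (adjusted p = 8.26e-06), a difference of 3.39 ± 0.39 (adjusted p = 0.000135). HOPX, a homeodomain cofactor of the developing heart that binds no DNA itself, was at 0.69 and 0.84 FPKM in NP-IWP2 and 0.44 and 0.26 FPKM in P-DF cells on Day 12. By Day 16 it was at 1.3 and 0.73 against 11.9 and 13.6 FPKM, so that only the P-DF level was high. The difference of its log2 fold changes was 4.88 ± 0.39 (adjusted p = 1.54e-05). DES encodes desmin, the intermediate filament of muscle, and rose in both groups. It went from 35.2 and 43.5 to 87.2 and 82 FPKM in NP-IWP2 cells and from 18.5 and 11.2 to 137 and 122 FPKM in P-DF cells, which started lower and ended higher (difference 2.15 ± 0.26 on the log2 scale, adjusted p = 0.000203).

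To show the DNA before the start of genes that moved in each way, 150 bases are given for TNNI3 (reversed upwards), MYL7 and MYH6 (appeared upwards and downwards), NR4A3 (reversed downwards) and ID1 (appeared downwards). They were taken from RefSeq promoters of GRCh38.p14, which held 58 of the 88 genes described with values, and are written 5′ to 3′ on the strand of the gene, ending at the base before the RefSeq start site. Capitals mark matches on either strand to 4 kinds of motif. The GATA motif was searched as AGATAA, or with its first base changed as TGATAA, and 8.52% of 35116 promoter windows of this length held a match. The TATA box was searched as TATAAA (6.71% of windows), and the core of a cyclic AMP response element as TGACG (15.4%). The CArG box, which the factor SRF binds, was in 0.769% of windows. The windows are chr19:55157733-55157882 (minus strand) for TNNI3, chr7:44141333-44141482 (minus) for MYL7, chr14:23408274-23408423 (minus) for MYH6, chr9:99821735-99821884 (plus) for NR4A3 and chr20:31605139-31605288 (plus) for ID1.
TNNI3: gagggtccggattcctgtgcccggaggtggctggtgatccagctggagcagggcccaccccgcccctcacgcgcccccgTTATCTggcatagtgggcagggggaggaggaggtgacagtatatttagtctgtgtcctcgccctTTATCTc
MYL7: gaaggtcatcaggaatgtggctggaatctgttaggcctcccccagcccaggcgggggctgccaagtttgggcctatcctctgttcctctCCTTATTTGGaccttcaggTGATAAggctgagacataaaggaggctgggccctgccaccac
MYH6: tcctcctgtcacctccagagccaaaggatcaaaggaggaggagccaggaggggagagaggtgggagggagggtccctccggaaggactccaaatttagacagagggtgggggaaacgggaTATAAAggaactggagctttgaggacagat
NR4A3: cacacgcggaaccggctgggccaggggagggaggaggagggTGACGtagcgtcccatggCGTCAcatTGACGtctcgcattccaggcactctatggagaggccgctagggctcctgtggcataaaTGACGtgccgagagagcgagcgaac
ID1: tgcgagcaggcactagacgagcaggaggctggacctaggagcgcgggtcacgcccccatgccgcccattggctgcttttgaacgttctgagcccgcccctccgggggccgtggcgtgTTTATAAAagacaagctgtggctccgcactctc
TNNI3 held a GATA match on the other strand that began 71 bases and another that began 7 bases before the start. The gene coordinates given above for TNNI3 reach into this window, so by them the match at 7 bases lies inside the gene. MYL7 held the CArG box CCTTATTTGG 61 bases and a GATA match 42 bases before it. MYH6 held a TATAAA match at 30 bases, ID1 overlapping matches on both strands at 33 and 31 bases, and NR4A3 4 matches to TGACG, at 109, 91, 83 and 25 bases. A match is a description of these letters and says nothing of whether a factor bound there.

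Signaling genes and genes of connective tissue were also among those that reversed upwards. FZD2, a receptor for WNT ligands, was at 15.3 and 14.4 FPKM in NP-IWP2 and 8.39 and 6.57 FPKM in P-DF cells on Day 12 and at 24.9 and 20 against 46.9 and 50.7 FPKM on Day 16 (difference of the log2 fold changes 2.23 ± 0.20, adjusted p = 3.15e-05). FST encodes follistatin, which binds and blocks activins. Its P-DF level hardly moved, with 11 and 11.6 FPKM on Day 12 and 9.07 and 11.4 FPKM on Day 16, while NP-IWP2 cells went from 26.3 and 28.9 to 7.18 and 5.56 FPKM (difference 2.10 ± 0.21, adjusted p = 5.62e-05). FST thus reversed through the fall in NP-IWP2 cells, unlike the muscle genes above. PRRX1, a homeobox gene of embryonic mesenchyme, had the largest difference of those named with the effect reversed: NP-IWP2 cells were at 1.77 and 1.64 FPKM on Day 12 and 2.42 and 1.37 FPKM on Day 16, and P-DF cells at 0.17 and 0.02 and then 7.07 and 8.13 FPKM (6.27 ± 0.52 on the log2 scale, adjusted p = 1.83e-05). RRAS, a small GTPase related to RAS, went from 1.77 and 0.97 to 15.8 and 15.2 FPKM in P-DF cells against 5.69 and 5.32 to 12.2 and 7.85 FPKM in NP-IWP2 cells (2.76 ± 0.39, adjusted p = 0.00061). The antisense RNA TNS1-AS1 showed the same order of groups, with 0.1 and 0.15 and then 5.73 and 5.01 FPKM in P-DF cells (5.42 ± 0.50, adjusted p = 3.33e-05). Whether the counting used strand is not given in the sources used here, so its reads cannot be told apart from those of TNS1.

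In the opposite direction, transcription factors of the immediate early response reversed from higher to lower in P-DF cells. These genes are switched on within minutes by growth factors, calcium or stress, without new protein synthesis, and the NR4A genes among them encode orphan nuclear receptors. NR4A2 (ENSG00000153234, chr2:156324437-156342348) was at 1.08 and 1.07 FPKM in NP-IWP2 and 1.76 and 1.88 FPKM in P-DF cells on Day 12 and at 4.86 and 7.48 against 0.74 and 0.54 FPKM on Day 16. Its log2 fold change went from 0.84 ± 0.22 to -3.05 ± 0.22 (difference -3.89 ± 0.31, adjusted p = 1.54e-05). The rise in NP-IWP2 cells was larger than the fall in P-DF cells. NR4A3 followed the same course, from 2.87 and 3.58 to 9.5 and 10.8 FPKM in NP-IWP2 cells and from 5.59 and 4.69 to 2.2 and 2.89 FPKM in P-DF cells (-2.53 ± 0.21, adjusted p = 1.84e-05). NR4A1 was at 17.4 and 16.4 and 19.7 and 16.9 FPKM in P-DF cells and went from 13.1 and 12.3 to 31.2 and 41.1 FPKM in NP-IWP2 cells (-1.25 ± 0.16, adjusted p = 0.000286). EGR3, a zinc finger factor of the same response, was level in P-DF cells (2.71 and 1.79 and 1.88 and 1.97 FPKM, time log2 fold change 0.02) and went from 1.21 and 1 to 7.15 and 9.46 FPKM in NP-IWP2 cells (-2.99 ± 0.28, adjusted p = 4.16e-05). Of 29 immediate early and heat shock genes tested, 12 (41.4%) were called for the difference between the days against 12.6% of all genes, 10 of them more negative, and 5 reversed. The median of the 29 was -0.451 against -0.022 over all genes. The fifth reversing gene was JUN, named after its values were seen, which reversed upwards. With time, 27 of the 29 rose in NP-IWP2 cells (14% of all genes did). In P-DF cells 17 rose (18.1% of all genes) and 3 fell (18.7%).

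HAS2 had the largest downward difference among the named genes that reversed. It makes hyaluronan, the glycan that fills the cardiac jelly of the early heart. It stood at 19 and 23.7 FPKM in NP-IWP2 and 38.8 and 39.2 FPKM in P-DF cells on Day 12, and at 13.4 and 17.6 against 0.5 and 0.68 FPKM on Day 16. The P-DF level was the highest of the groups on Day 12 and the lowest on Day 16, with no overlap, and the log2 fold change went from 0.95 ± 0.12 to -4.49 ± 0.17 (difference -5.43 ± 0.21, adjusted p = 2.64e-08). The ligand genes WNT2 and BMP2 fell in both groups and further in P-DF cells. WNT2 went from 19.7 and 10.3 to 0.19 and 0.03 FPKM in P-DF cells and from 5.92 and 5.17 to 0.67 and 0.87 FPKM in NP-IWP2 cells (-4.21 ± 0.66, adjusted p = 0.00126). BMP2 went from 93.4 and 119.5 to 8.78 and 8.61 FPKM and from 55.5 and 52.4 to 17.7 and 18.5 FPKM (-1.9 ± 0.15, adjusted p = 1.7e-05). EPHA3, an ephrin receptor kinase, was at 5.72 and 2.91 FPKM in P-DF and 2.32 and 2.27 FPKM in NP-IWP2 cells on Day 12 and at 1.24 and 1.32 against 5.46 and 7.77 FPKM on Day 16 (-3.14 ± 0.36, adjusted p = 0.000136). The antisense RNA ACTA2-AS1 also reversed (-3.53 ± 0.29, adjusted p = 1.83e-05), but its reads cannot be told apart from those of the overlapping gene ACTA2 if strand was not used.

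The retinoid list held 2 reversing genes and had the highest share of calls of the lists with at least 10 genes tested. RDH10, which oxidizes retinol in the first step to retinoic acid, was at 8.74 and 9.5 FPKM in NP-IWP2 and 19 and 17.5 FPKM in P-DF cells on Day 12 and at 12.1 and 14.5 against 4.93 and 6.07 FPKM on Day 16. Its effect was of almost equal size on both days, 1.08 ± 0.11 and -1.05 ± 0.12 on the log2 scale (difference -2.14 ± 0.16, adjusted p = 1.05e-05). The retinoid receptor gene RXRG went from 37.9 and 26.2 to 3.83 and 3.11 FPKM in P-DF cells and from 19.5 and 20.3 to 8.71 and 12.2 FPKM in NP-IWP2 cells (-2.14 ± 0.25, adjusted p = 0.000182). CRABP2, which carries retinoic acid to its receptors, appeared: it was at 28.1 and 24.7 FPKM and 34.4 and 22.9 FPKM on Day 12, where the groups overlapped, and at 26 and 21.9 against 6.49 and 5.08 FPKM on Day 16 (-2.05 ± 0.28, adjusted p = 0.000504). Of 15 genes tested, 8 (53.3%) were called for the difference between the days, against 12.6% of all genes. Of the 8, 7 were more negative (6.83% of all genes were). The median difference was -1.073, or -0.84 when genes with a group at 0 counts were set to the bound that 3 counts give. Outside these lists, IRX3, a ventricular homeobox gene, reversed from 1.02 ± 0.18 to -0.54 ± 0.20 on the log2 scale (adjusted p of the difference = 0.0022), and LPL, which releases fatty acids from lipoproteins, from 1.51 ± 0.33 to -0.93 ± 0.30 (adjusted p = 0.00314).

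**Figure D2:**
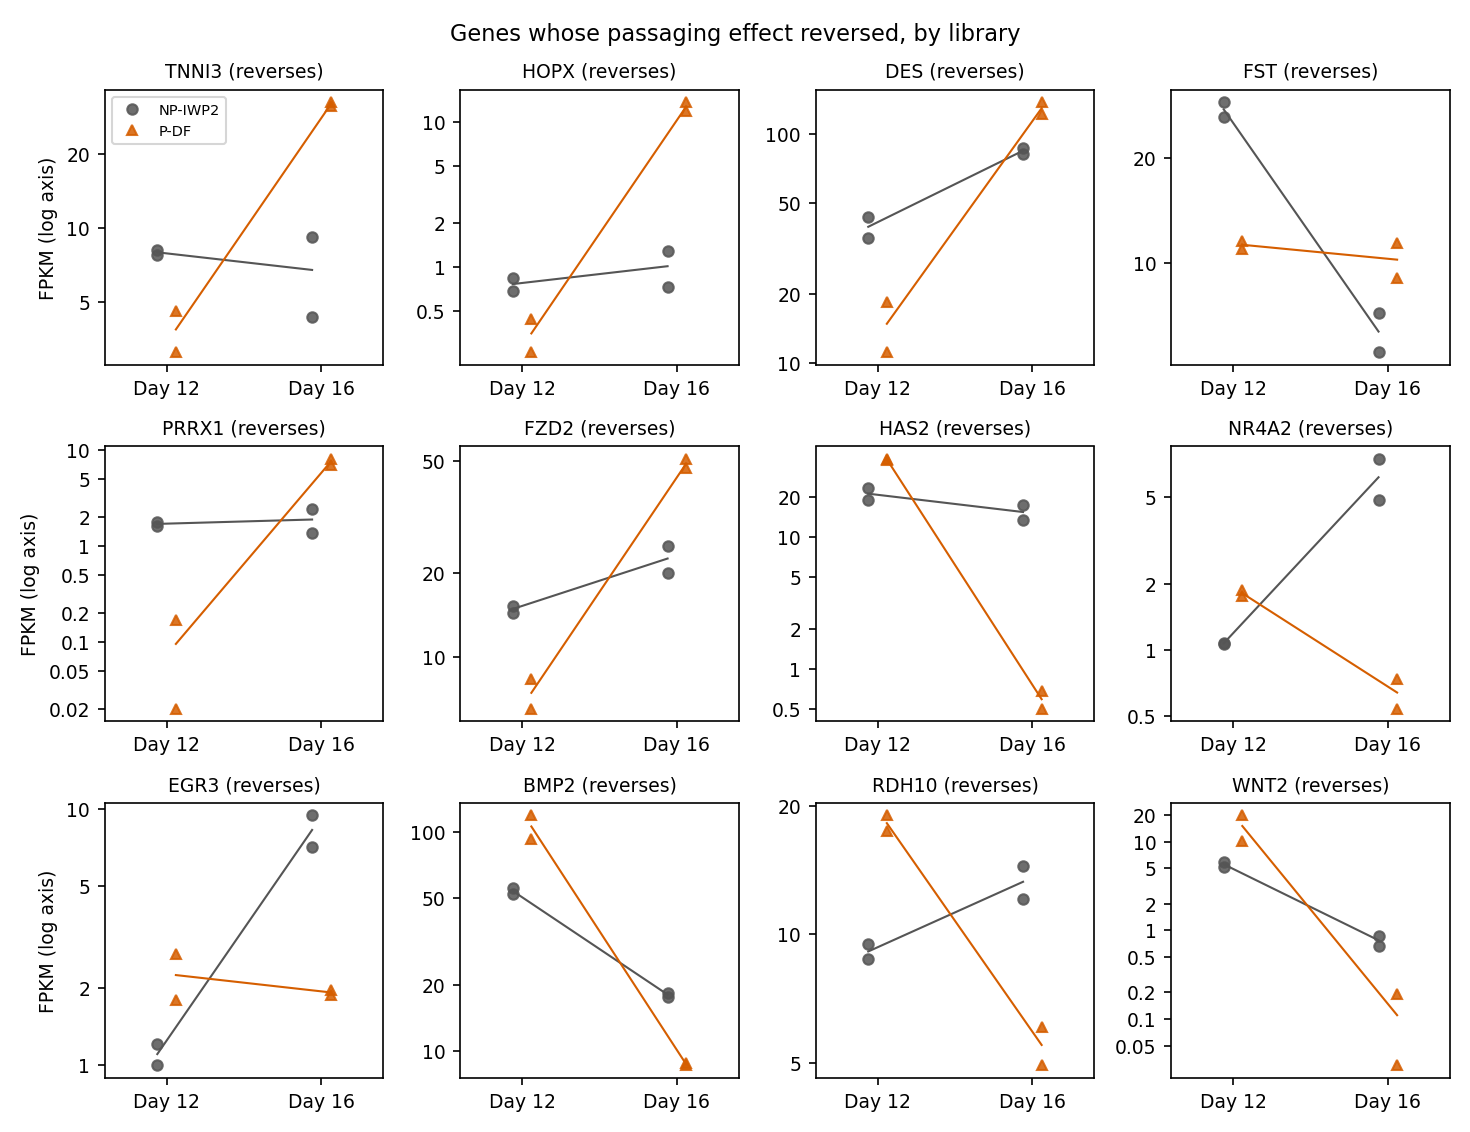
FPKM (log axis) of 12 genes whose passaging effect reversed, on Day 12 and Day 16, with 1 point per library (circles NP-IWP2, triangles P-DF) and lines that join the means of 2 libraries. In the first 6 panels, TNNI3 to FZD2, P-DF cells lay below NP-IWP2 cells on Day 12 and above on Day 16, and in the last 6, HAS2 to WNT2, the order was the opposite.

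Genes whose effect appeared upwards included further parts of the contractile and calcium machinery, which did not pass the test on Day 12. CASQ2, the calcium store protein of the sarcoplasmic reticulum, was at 1.04 and 1.11 FPKM in NP-IWP2 and 1.3 and 1.1 FPKM in P-DF cells on Day 12, and at 3.59 and 1.78 against 15.8 and 16.5 FPKM on Day 16. Its log2 fold change was 0.23 ± 0.34 on Day 12 and 2.77 ± 0.24 on Day 16 (difference 2.54 ± 0.41, adjusted p = 0.00156). MYL7, the atrial light chain that is abundant in the whole embryonic heart, went from 2199 and 2283 to 3740.1 and 3646 FPKM in P-DF cells and from 2956 and 2637 to 1836 and 1573 FPKM in NP-IWP2 cells, so that the P-DF libraries were the lower on Day 12, short of a call (adjusted p = 0.215), and the higher on Day 16 (difference 1.56 ± 0.20, adjusted p = 0.000251). The Z-disc gene ACTN2 (alpha-actinin, 1.35 ± 0.26) and MYBPC3 (cardiac myosin binding protein C, 1.00 ± 0.18) appeared too, with adjusted p of 0.00491 and 0.00281. CAMK2D, the calcium-dependent kinase that acts on phospholamban, went from 22.3 and 22.5 to 38.8 and 41.1 FPKM in P-DF cells and stayed at 25.1 and 27 and 24.4 and 21.5 FPKM in NP-IWP2 cells (1.15 ± 0.16, adjusted p = 0.000439). HRC, a calcium-binding protein of the same store, appeared at 0.93 ± 0.17 (adjusted p = 0.00374), where NP-IWP2 cells fell from 94.6 and 91.1 to 60.8 and 52 FPKM.

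Of 19 calcium handling genes tested, 10 (52.6%) were called, against 12.6% of all genes. Of these, 9 were more positive (5.78% of all genes were), and the median difference of the 19 was 0.5. In the list of ventricular and adult sarcomere genes, 5 of 24 (20.8%, against 12.6% of all genes) were called, all more positive. The median difference was 0.826. This median was 1.164 without the NP-IWP2 library 1 and 0.499 without library 2 of Day 16, 2 libraries that differed in several of these genes. The number of calls in this list depended on the fit. It was 17 of 24 with no filter on low counts and 11 with the library number as a replicate block. With all 12 libraries it was 1 of 24, and 4 of 24 with 11 libraries. In the main edgeR fit 12 passed at an unadjusted p under 0.05. Ion channels and connexins gave 9 calls of 25 (36%, against 12.6% of all genes), 7 of them more positive. Genes of the respiratory chain, the electron transport complexes of mitochondria, gave 8 calls of 56 (14.3%), all more positive, a share near that of all genes. Differences were above 0 in 54 of the 56, with a median of 0.31 against -0.022 over all genes. This median was 0.461 without the NP-IWP2 library 1 and 0.208 without library 2 of Day 16. The calls also depended on the fit. They were 14 of 56 with a replicate block, 3 of 56 with total-count scaling and 0 of 57 with all 12 libraries. In P-DF cells 29 of the 56 were called higher on Day 12 (11.5% of all genes were) and 54 on Day 16 (16.9%). COX6A2, the muscle isoform of a cytochrome c oxidase subunit, had the largest difference in this list: it was at 14.4 and 12.1 and 10.4 and 14.3 FPKM on Day 12 and at 6.43 and 4.34 against 16.1 and 19.4 FPKM on Day 16 (1.94 ± 0.36, adjusted p = 0.00351). Of the 13 genes of the mitochondrial genome, 11 were higher in P-DF cells on Day 12 (11.5% of all genes were) and 13 on Day 16 (16.9% of all genes), with a median difference between the days of 0.2. For that difference 0 of the 13 were called by edgeR, with 0 at an unadjusted p under 0.05, 0 by DESeq2 and limma-voom (4 and 3 at an unadjusted p under 0.05) and 3 by edgeR with no filter on low counts.

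By size of the difference, the leading genes that appeared upwards were LEFTY2, HSPB6, FGF1, SYNDIG1, CAVIN4 and TMEM71. LEFTY2, a secreted inhibitor of Nodal, was at 0.47 and 0.24 FPKM in NP-IWP2 and 0.21 and 0.47 FPKM in P-DF cells on Day 12 and at 3.55 and 0.71 against 35.9 and 47.1 FPKM on Day 16 (4.43 ± 1.16, adjusted p = 0.0256). Its call was lost without either NP-IWP2 library of Day 12 (differences 3.87 and 4.83) and without the P-DF library 4 of Day 16 (4.24). HSPB6, a small heat shock protein of muscle, went from 0.97 and 0.51 to 37.1 and 26.9 FPKM in P-DF cells and from 1.62 and 1.38 to 7.87 and 2.56 FPKM in NP-IWP2 cells (3.73 ± 0.71, adjusted p = 0.00417). The growth factor FGF1 went from 0.58 and 1.11 to 20.9 and 22 FPKM and from 1.21 and 1.02 to 3.86 and 1.95 FPKM (3.39 ± 0.44, adjusted p = 0.000314). In each of these genes both groups rose and P-DF cells rose further. CAVIN4, a caveolar coat protein of muscle, reached 17.2 and 14.6 FPKM in P-DF against 2.5 and 2.07 FPKM in NP-IWP2 cells on Day 16, after 2.21 and 1.25 against 1.55 and 1.6 FPKM (2.79 ± 0.32, adjusted p = 0.000128). SYNDIG1 (2.89 ± 0.32, adjusted p = 0.000106) and TMEM71 (2.64 ± 0.54, adjusted p = 0.00703, and not called without NP-IWP2 library 1 of Day 12, at 2.32) followed.

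Genes whose effect appeared downwards included several signaling genes. TGFB2 (ENSG00000092969, chr1:218345336-218444619), a ligand of the TGF-beta family, was at 58.7 and 69.5 FPKM in NP-IWP2 and 64.3 and 58.6 FPKM in P-DF cells on Day 12, where the groups overlapped. On Day 16 it was at 37.9 and 54.4 against 5.46 and 4.4 FPKM, so that the P-DF libraries lay far below all others. The log2 fold change went from 0.02 ± 0.14 to -3.01 ± 0.16 (difference -3.03 ± 0.21, adjusted p = 4.89e-06). ID1, ID3 and ID4 encode inhibitors of basic helix-loop-helix factors and are direct targets of BMP signals. ID1 was at 121 and 116 and 99.1 and 117 FPKM in NP-IWP2 cells and went from 93.3 and 98.2 to 23.2 and 14.5 FPKM in P-DF cells (-2.08 ± 0.21, adjusted p = 5.42e-05). ID4 went from 49.3 and 46.6 to 10.2 and 8.92 FPKM in P-DF cells and from 43.7 and 49.7 to 63.5 and 84.6 FPKM in NP-IWP2 cells (-2.86 ± 0.17, adjusted p = 1.57e-06). ID3 was already lower in P-DF cells on Day 12 (-0.53 ± 0.11 on the log2 scale) and more so on Day 16 (-2.35 ± 0.12; adjusted p of the difference = 2.97e-05). Of 30 genes of BMP, TGF-beta and activin signaling tested, 15 (50%) were called for the difference, against 12.6% of all genes. Of the 15, 11 were more negative (6.83% of all genes were). The median of the 30 was -0.412 against -0.022 over all genes. The 4 that became more positive were TGFB1, FSTL3, FST and LEFTY2, of which FSTL3, FST and LEFTY2 encode secreted inhibitors. They are named here after their values were seen.

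MYH6 lost ground in P-DF cells. It was at 1613 and 1396 FPKM in NP-IWP2 and 1650.2 and 1748 FPKM in P-DF cells on Day 12 and at 436 and 417 against 109 and 71 FPKM on Day 16. The level fell in both groups and further in P-DF cells, with log2 fold changes with time of -1.71 in NP-IWP2 and -4.00 in P-DF cells (difference -2.29 ± 0.26, adjusted p = 0.000115). KDR, the VEGF receptor of endothelial cells and of early cardiac progenitors, went from 224 and 161 to 15 and 13.3 FPKM in P-DF cells and from 177 and 156 to 39.3 and 39.2 FPKM in NP-IWP2 cells (-1.55 ± 0.21, adjusted p = 0.000463). The other 6 endothelial markers of the marker list (CDH5, EGFL7, EMCN, PECAM1, TEK and TIE1) were each at most 2.33 FPKM in P-DF cells on Day 12. In the NP-IWP2 libraries of that day they were at 1.59 to 11.5 FPKM. ACTA2, the smooth muscle actin that embryonic cardiomyocytes also express, was at 122 and 96.2 and 161 and 167 FPKM on Day 12 and at 219 and 131 against 25.1 and 15.5 FPKM on Day 16 (-3.58 ± 0.35, adjusted p = 4.86e-05). The Day 12 libraries did not overlap but missed the threshold (adjusted p = 0.0531). GPC3, a glypican of the cell surface, went from 57.1 and 88.9 to 8.06 and 9.1 FPKM in P-DF cells and stayed at 93.8 and 81.7 and 89.6 and 84.1 FPKM in NP-IWP2 cells (-2.94 ± 0.24, adjusted p = 1.6e-05). CCDC80, a matrix protein, fell from 18.9 and 37.1 to 1.47 and 1.41 FPKM (-3.12 ± 0.30, adjusted p = 4.84e-05). LRRN3 and RSPO2 had the largest differences of the named genes that appeared downwards. LRRN3, a leucine-rich repeat membrane protein, was at 1.7 and 1.96 and then 0.11 and 0.07 FPKM in P-DF and 1.85 and 2.05 and then 4.23 and 6.2 FPKM in NP-IWP2 cells (-5.58 ± 0.37, adjusted p = 4.45e-06). RSPO2, a secreted enhancer of WNT signals, went from 5.55 and 1.81 to 0.09 and 0.01 FPKM and from 5.84 and 5.71 to 3.01 and 2.91 FPKM (-5.15 ± 0.84, adjusted p = 0.00156).

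Of 30 genes of cholesterol synthesis and uptake tested, 22 rose with time in NP-IWP2 cells (14% of all genes did) and 15 in P-DF cells (18.1% of all genes). SQLE, the squalene epoxidase, was at 17.6 and 18.2 FPKM in NP-IWP2 and 21.9 and 18.2 FPKM in P-DF cells on Day 12 and at 28.1 and 25.7 against 13.5 and 13 FPKM on Day 16 (-1.06 ± 0.16, adjusted p = 0.000779). SCD, which desaturates fatty acids, was at 175 and 158 against 82.4 and 86.9 FPKM on Day 16 (-0.84 ± 0.19, adjusted p = 0.0119), but its call was lost without either NP-IWP2 library of Day 12 (-0.87 and -0.78) and without either P-DF library of Day 16 (-0.77 and -0.86). For the difference between the days 8 of the 30 (26.7%, against 12.6% of all genes) were called. Of the 8, 7 were more negative (6.83% of all genes were). The median effect was -0.088 on Day 12 and -0.486 on Day 16.

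Genes whose effect faded were led by COL21A1 (ENSG00000124749, chr6:56056590-56394094), a fibril-associated collagen. It was at 13.3 and 13.3 FPKM in NP-IWP2 and 0.34 and 0.24 FPKM in P-DF cells on Day 12 and at 21.4 and 24.3 against 22.4 and 23.1 FPKM on Day 16, where the groups overlapped. The log2 fold change went from -5.45 ± 0.14 to 0.21 ± 0.09 (difference 5.66 ± 0.17, adjusted p = 2.23e-09). The P-DF cells therefore reached the NP-IWP2 level from a level near 0. VAMP5, a vesicle protein of muscle, went from 1.19 and 1.67 to 5.9 and 4.71 FPKM in P-DF and from 7.94 and 5.18 to 4.25 and 3.47 FPKM in NP-IWP2 cells (2.77 ± 0.44, adjusted p = 0.00139). SPSB1 (2.46 ± 0.37, adjusted p = 0.000833), the hyaluronan link protein gene HAPLN3 (2.36 ± 0.24, 5.62e-05) and the transcription factor gene CREB5 (2.40 ± 0.37, 0.000995) faded in the same direction. CREB5 rose in both groups, to 6.01 and 4.54 FPKM in NP-IWP2 and 4.73 and 4.53 FPKM in P-DF cells. The processed pseudogene TMSB4XP8 also met the criteria for naming, but its reads can come from TMSB4X and it is left without values.

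Most genes of mitosis tested were lower in P-DF cells on Day 12, and fewer on Day 16. TOP2A, the topoisomerase of dividing cells, went from 10.4 and 9.35 to 14.3 and 17.1 FPKM in P-DF cells and was at 15.3 and 17.5 and 18 and 17.5 FPKM in NP-IWP2 cells (0.69 ± 0.16, adjusted p = 0.0136). KIF20A, a kinesin of cytokinesis, went from 5.13 and 4.88 to 7.27 and 8.01 FPKM against 7.69 and 8.48 and 7.85 and 8.82 FPKM (0.70 ± 0.15, adjusted p = 0.00998). Both calls were lost without NP-IWP2 library 2 of Day 12 (TOP2A 0.62, KIF20A 0.66) and without P-DF library 4 of Day 16 (0.57 and 0.65). Of 30 mitosis genes, 20 were lower on Day 12 (17.4% of all genes were) and 6 on Day 16 (22% of all genes), where 3 were higher, and 4 (13.3%) were called for the difference, all more positive, a share near the 12.6% of all genes. Besides TOP2A and KIF20A these were ANLN and AURKA, whose effect appeared, at 0.58 on the log2 scale on Day 16 in both. The median effect of the 30 was -0.563 on Day 12 and -0.04 on Day 16, against -0.01 and -0.033 over all genes. MKI67, the proliferation marker Ki-67, was lower in P-DF cells on both days (-0.87 ± 0.09 and -0.59 ± 0.09 on the log2 scale) and was not called for the difference (adjusted p = 0.191).

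Of the 235 genes whose effect faded downwards, 132 fell in P-DF cells alone and 46 rose in NP-IWP2 cells alone. The named ones were higher in P-DF cells on Day 12. ADAMTS19, a secreted metalloprotease of the developing valves, went from 53.6 and 27 to 8.8 and 8.49 FPKM in P-DF cells and from 9.05 and 8.92 to 11.8 and 13.7 FPKM in NP-IWP2 cells (-2.59 ± 0.32, adjusted p = 0.000251). The P-DF libraries of Day 12 were apart from each other and both above the others. FGF18, a growth factor, went from 11.6 and 11.7 to 6.06 and 4.14 FPKM and from 2.66 and 3.06 to 7.24 and 5.57 FPKM (-2.24 ± 0.28, adjusted p = 0.000262), and SERPINI1 (neuroserpin) from 29.3 and 20.1 to 7 and 6.42 FPKM and from 6.47 and 6.32 to 7.96 and 7.34 FPKM (-2.01 ± 0.24, adjusted p = 0.000217). GPR183 (-1.9 ± 0.35, adjusted p = 0.00329), FAM222A (-1.81 ± 0.21, 0.000137) and PDE5A, which degrades cyclic GMP (-1.71 ± 0.37, 0.00993), completed the largest. PDE5A was not called without NP-IWP2 library 2 of Day 12 (-1.62) or P-DF library 4 of Day 16 (-1.49).

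Several of the fading genes belong to the WNT and cardiac lists. WNT11, a ligand of cardiac progenitors, was at 43.5 and 52.3 FPKM in P-DF and 26.3 and 25 FPKM in NP-IWP2 cells on Day 12 and at 10 and 8.5 against 11.5 and 11.8 FPKM on Day 16 (-1.10 ± 0.15, adjusted p = 0.000486). The potassium channel gene KCNJ5 went from 34.5 and 26.3 to 12.1 and 10.7 FPKM in P-DF cells (-0.97 ± 0.18, adjusted p = 0.00333), and the muscle glycogen phosphorylase gene PYGM from 51.2 and 54.1 to 22.6 and 22.1 FPKM (-0.70 ± 0.12, adjusted p = 0.00185). MEF2C, a transcription factor of muscle, fell from 29.5 and 27.2 to 11.4 and 11 FPKM in P-DF cells and from 21.3 and 20.8 to 13.6 and 15.2 FPKM in NP-IWP2 cells (-0.65 ± 0.13, adjusted p = 0.00511; -0.61 and not called without NP-IWP2 library 2 of Day 12). GATA6, a factor of heart and endoderm, faded the other way, from -0.44 ± 0.09 to 0.08 ± 0.09 (0.0129); it was not called without NP-IWP2 library 2 of Day 12 (0.50) or P-DF library 4 of Day 16 (0.54). Of 30 WNT pathway genes, 12 (40%) were called, 5 more positive and 7 more negative, and of 29 cardiac transcription factors 9 (31%), 3 and 6. Of all genes 12.6% were called, 5.78% more positive and 6.83% more negative. In the WNT list and in the list of cardiac transcription factors genes thus moved in both directions.

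**Figure D3:**
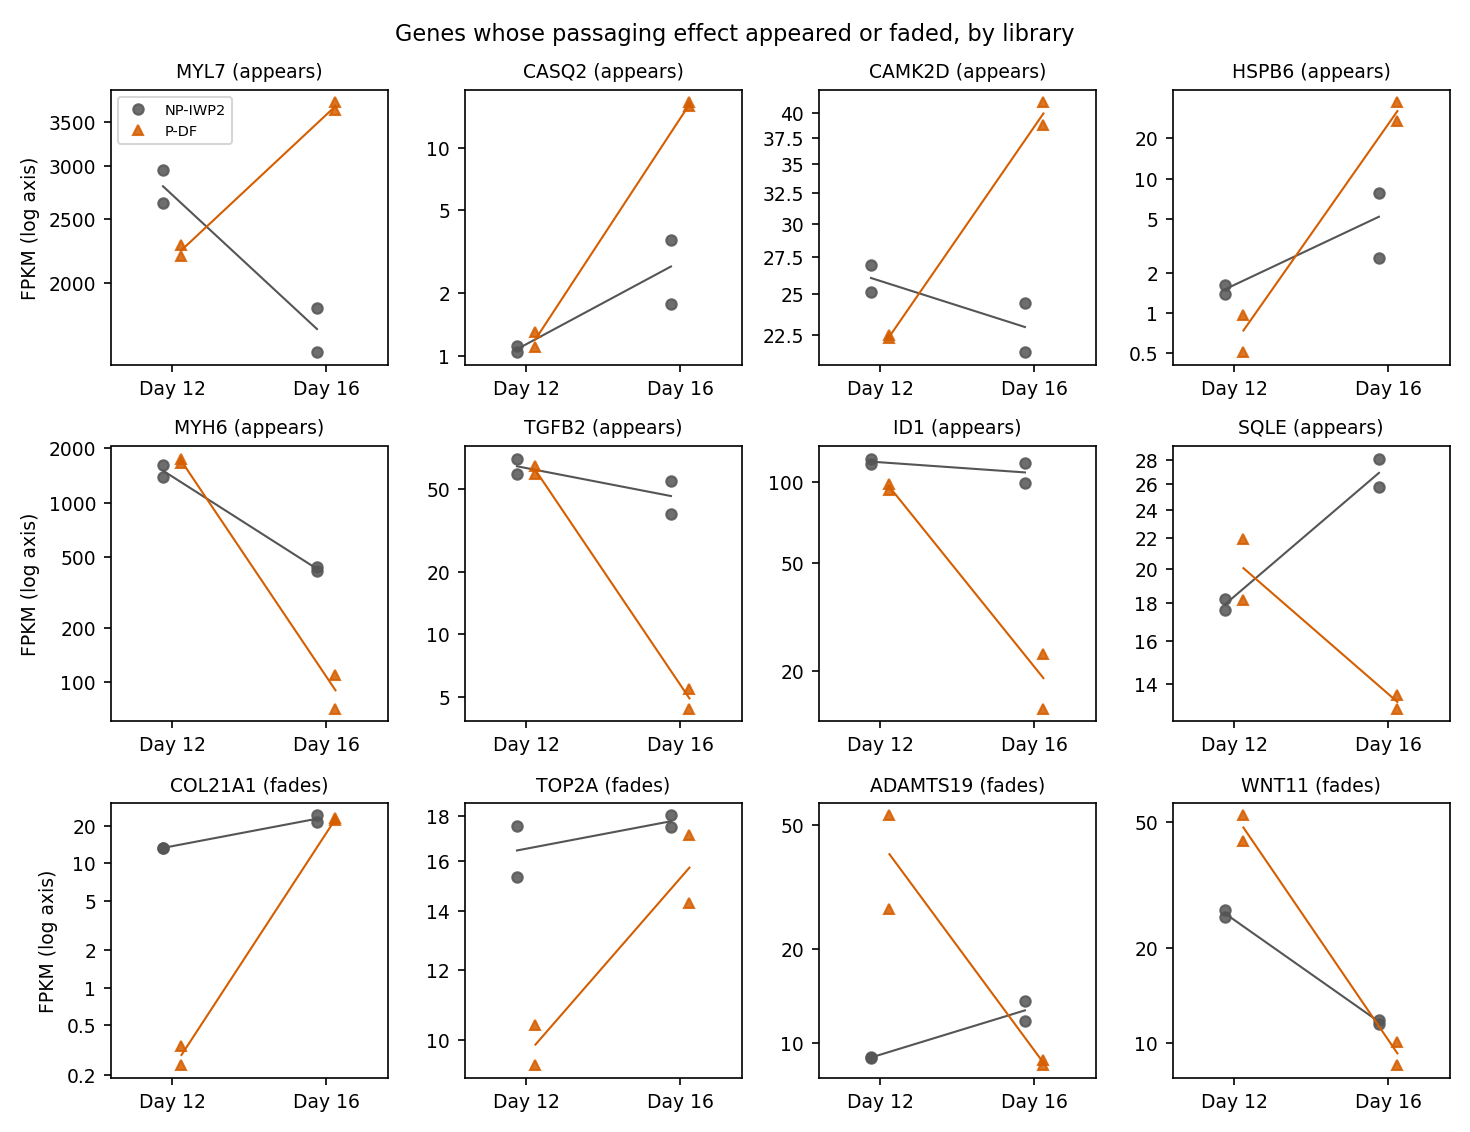
FPKM (log axis) of 8 genes whose passaging effect appeared (MYL7 to SQLE) and 4 whose effect faded (COL21A1 to WNT11), with 1 point per library (circles NP-IWP2, triangles P-DF) and lines that join the means of 2 libraries. The groups lie closer on Day 12 than on Day 16 in the first 8 panels, and closer on Day 16 in the last 4.

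Most called genes of fibroblasts and their matrix had an effect that grew. Of 30 tested, 27 were lower in P-DF cells on Day 12 (17.4% of all genes were) and 27 on Day 16 (22% of all genes). For the difference 14 (46.7%) were called, against 12.6% of all genes, of which 11 grew, 2 shrank and 1 faded, and 16 were not called. COL1A2, a chain of type I collagen, went from 15.2 and 11.2 to 3.65 and 4.26 FPKM in P-DF cells and from 93.9 and 102 to 169 and 182 FPKM in NP-IWP2 cells (-2.44 ± 0.21, adjusted p = 2.03e-05). FN1, the matrix protein fibronectin, was at 139 and 130.0 and then 27.6 and 29.1 FPKM in P-DF cells and at 239 and 222 and then 160.5 and 156 FPKM in NP-IWP2 cells (-1.57 ± 0.17, adjusted p = 9.63e-05). COL1A1, the other chain of type I collagen, was not called (-0.43 ± 0.20, adjusted p = 0.179), with 12 and 10.1 and 14.6 and 11.3 FPKM in P-DF cells. COL12A1 was the called member that grew upwards, from 0.47 and 0.41 to 13.3 and 12.9 FPKM in P-DF and from 0.28 and 0.2 to 1.48 and 0.83 FPKM in NP-IWP2 cells (2.78 ± 0.37, adjusted p = 0.000373). The marker sum given above includes COL1A1 and COL1A2, and the part of fibroblasts in these levels was not tested. APOB, the apolipoprotein of liver lipoproteins, was near 0 in P-DF cells on both days (0.12 and 0.25 and 0.03 and 0.01 FPKM) and went from 32.6 and 21.5 to 56 and 50 FPKM in NP-IWP2 cells (-4.20 ± 0.66, adjusted p = 0.00122). Of 26 hepatic genes tested, 24 were lower on Day 12 (17.4% of all genes were) and 25 on Day 16 (22% of all genes), and 5 (19.2%) were called for the difference, against 12.6% of all genes.

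Among muscle genes, PLN, the phospholamban that restrains the calcium pump, was higher in P-DF cells on Day 12 and more so on Day 16. It was at 74.9 and 69.1 FPKM in NP-IWP2 and 174 and 179 FPKM in P-DF cells on Day 12 and at 177 and 135 against 905 and 1038 FPKM on Day 16 (1.47 ± 0.21, adjusted p = 0.000665). SLC2A4, the insulin-responsive glucose transporter, was kept at 10.8 and 9.66 and 10.8 and 13.2 FPKM in P-DF cells while NP-IWP2 cells went from 6.14 and 6.01 to 2.73 and 3.1 FPKM (1.43 ± 0.18, adjusted p = 0.000261). FABP3, the fatty acid carrier of heart, went from 100.2 and 106 to 231 and 243 FPKM in P-DF cells and was at 72.2 and 65.3 and 79.2 and 57.9 FPKM in NP-IWP2 cells (1.33 ± 0.20, adjusted p = 0.000995). GJA1, the gap junction protein connexin 43, shrank instead: P-DF cells rose from 2.83 and 2.75 to 21.7 and 22.4 FPKM, still below the 28.7 and 28.3 and 64.6 and 62.2 FPKM of NP-IWP2 cells (1.96 ± 0.14, adjusted p = 4.89e-06). AQP1, a water channel, also came closer from below (-3.73 ± 0.21 to -0.67 ± 0.16, adjusted p of the difference = 2.23e-05). VCAM1, an adhesion molecule used as a surface marker of cardiomyocytes, came closer from above, from 128 and 148 against 39.3 and 38.4 FPKM to 73.4 and 77.2 against 53.7 and 61.6 FPKM (-1.31 ± 0.14, adjusted p = 9.94e-05), as did KLHL14 (3.69 ± 0.12 to 1.9 ± 0.14, adjusted p = 8.75e-05).

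**Figure D4:**
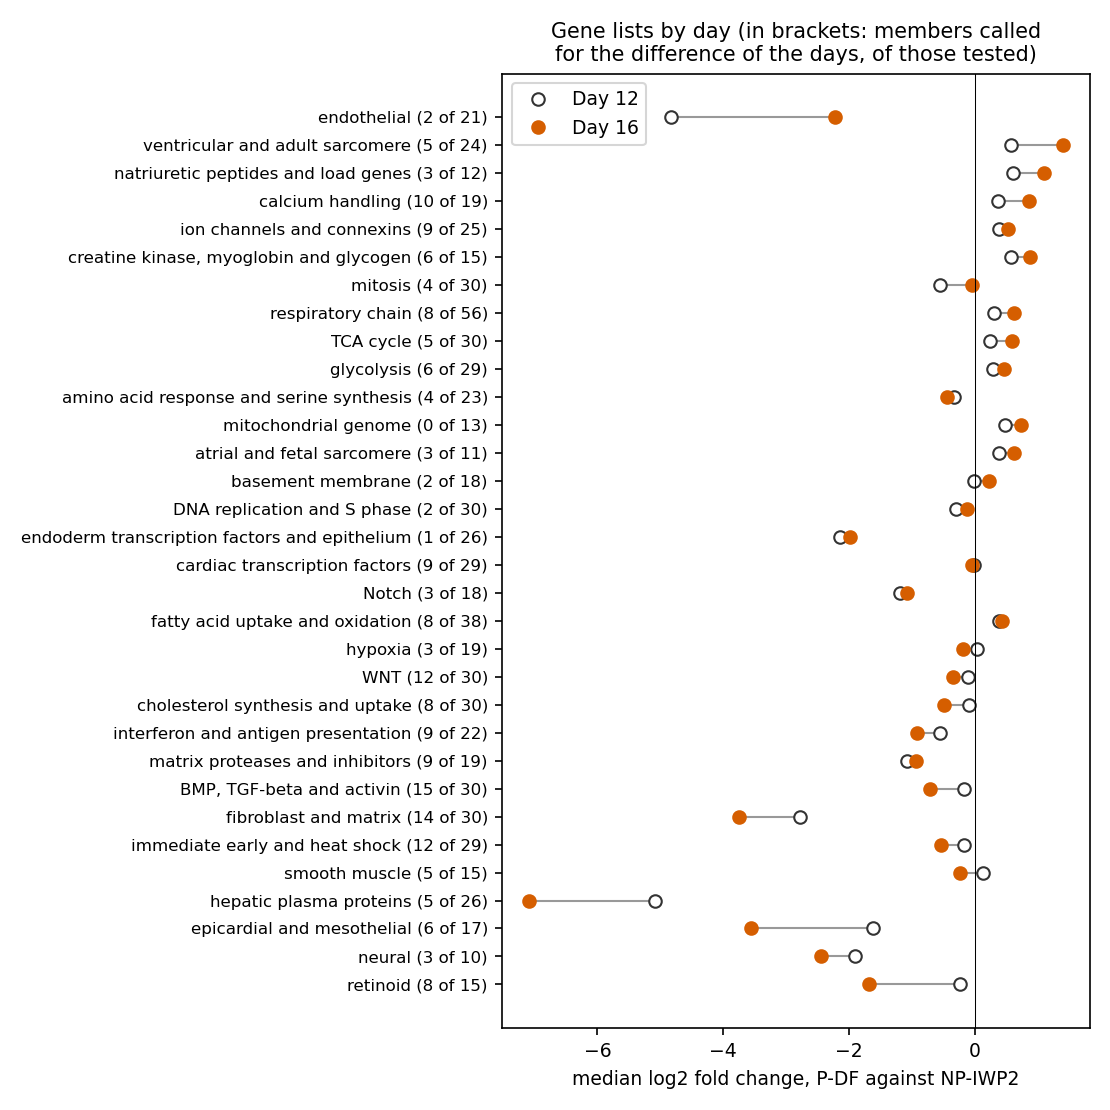
Median log2 fold change of P-DF against NP-IWP2 cells on Day 12 (open points) and Day 16 (filled points) in each gene list with at least 10 genes tested, with genes at 0 counts set to the bound that 3 counts give, ordered by the median difference. Retinoid genes go from -0.246 to -1.69 and ventricular and adult sarcomere genes from 0.57 to 1.4, while cardiac transcription factors stay near 0.

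Other well-known cardiac genes were not called for a difference between the days, and the spread of single libraries set the limit for several of them. MYH7 was at 54.4 and 37.9 FPKM in NP-IWP2 and 121 and 88.8 FPKM in P-DF cells on Day 12 and at 695 and 351 against 2613 and 2340.2 FPKM on Day 16. It was higher in P-DF cells on both days (1.27 ± 0.29 and 2.44 ± 0.30 on the log2 scale), and the difference of 1.17 ± 0.41 missed the threshold (adjusted p = 0.0796). MYL2, the ventricular light chain, went from 3.56 and 1.37 to 1662 and 1360.3 FPKM in P-DF and from 0.28 and 0.34 to 38.6 and 4.52 FPKM in NP-IWP2 cells (difference 3.25 ± 2.20, adjusted p = 0.377). Without the NP-IWP2 library 1 of Day 16, MYH7 had a difference of 1.84 and MYL2 of 5.63, and both passed. MYH7 also passed without P-DF library 3 of Day 12 (1.44), and both genes passed with no filter on low counts and with a replicate block. The natriuretic peptide genes NPPA (2.04 ± 0.74, adjusted p = 0.0918) and NPPB (-2.99 ± 1.22, adjusted p = 0.132) were as uneven: NPPB was at 141 and 15.3 FPKM in the P-DF libraries of Day 12 and at 136 and 20.9 FPKM in the NP-IWP2 libraries of Day 16. NPPA passed without P-DF library 3 of Day 12 (3.62) or NP-IWP2 library 1 of Day 16 (3.08), and NPPB without P-DF library 4 of Day 12 (-3.85) or NP-IWP2 library 2 of Day 16 (-3.79). By the edgeR fit TNNT2, NKX2-5 and TNNI1 were higher in P-DF cells on both days. Their differences between the days were -0.06 ± 0.19, -0.26 ± 0.13 and 0.27 ± 0.17 (adjusted p = 0.88, 0.234 and 0.35). The TNNT2 libraries overlapped on Day 16, at 74.8 and 87.8 FPKM in NP-IWP2 and 106 and 78.7 FPKM in P-DF cells. The hepatic marker AFP and the epicardial marker WT1, gave adjusted p of 0.628 and 0.142 for the difference between the days. Their P-DF libraries of Day 12 held 3 reads of AFP and 1 read of WT1 in all.

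In P-IWP2 cells, which were passaged and had IWP2, the same genes can be set beside the others as levels. TNNI3 was at 3.62 and 5.53 FPKM in the P-IWP2 libraries of Day 12 and at 35.9 and 35.1 FPKM on Day 16, and HOPX at 0.12 and 0.21 and 15.8 and 16.9 FPKM. These levels lay below the NP-IWP2 libraries on Day 12 and above them on Day 16, as in P-DF cells. TGFB2 was at 6.65 and 15.3 FPKM and HAS2 at 0.93 and 1.07 FPKM on Day 16, in both cases below the NP-IWP2 libraries. On Day 12, HAS2 was at 9.82 and 45.1 FPKM and COL21A1 at 12.3 and 0.39 FPKM, where library 5 stood near NP-IWP2 cells or below and library 6 near P-DF cells. ACTA2 differed between the libraries of Day 16 (28.7 and 207 FPKM). No test was made on these levels, because they are compared with the same NP-IWP2 libraries and library 5 of Day 12 stands apart.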

How the data were processed

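Bulk RNA was sequenced from H1 cultures on Day 12 and Day 16. Per the labels the authors trimmed reads with cutadapt 1.9.1, aligned them to hg38 with HISAT2 2.0.1 and counted them per gene with HTSeq 0.6.1. The deposited table holds raw read counts and the authors' FPKM (reads per kilobase of exon and scaled to the reads counted), 1 column of each per library, and 20417 of 61806 genes had no symbol. The annotation release and the use of strand are not given in the sources used here.

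Counts were tested with edgeR 4.0.16 in R 4.3.3 (filterByExpr, TMM scaling, quasi-likelihood test) on 8 libraries as 4 groups, with Benjamini-Hochberg adjustment over 18871 genes. Fits were tested on simulated data first. FPKM values are shown and were not tested. Samples were grouped by GEO's labels. A day's effect was the log2 fold change of P-DF against NP-IWP2 cells, and the test asked whether it differed between days. Genes with values are those with the largest differences per class and direction (up to 6, mean FPKM of at least 5 in a group, libraries without overlap on the days called), called members of 34 gene lists (up to 6 a list by adjusted p), and 14 cardiac and other marker genes whether called or not. Some genes that met these criteria are not reported here. The comparison, the genes and the lists were chosen with earlier results of these data known. Alternatives were RLE and total-count scaling, no filter, DESeq2 1.42.0, limma-voom (limma 3.58.1), fits on 12 and 11 libraries, a replicate block, another definition of an effect, and leaving out each library.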

Additional observations from a re-analysis of the deposited data

Results flagged for a closer look

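The effect of passaging differed between Day 12 and Day 16 in 2380 genes by edgeR's test of the difference itself (adjusted p under 0.05). Among the named genes it changed direction in 21, for which the difference of the log2 fold changes (Day 16 minus Day 12) is given. It was positive in 8, with DES 2.15, FST 2.10, FZD2 2.23, HOPX 4.88, PRRX1 6.27, RRAS 2.76, TNNI3 3.39 and TNS1-AS1 5.42. It was negative in 13, with ACTA2-AS1 -3.53, BMP2 -1.9, EGR3 -2.99, EPHA3 -3.14, HAS2 -5.43, IRX3 -1.56, LPL -2.44, NR4A1 -1.25, NR4A2 -3.89, NR4A3 -2.53, RDH10 -2.14, RXRG -2.14 and WNT2 -4.21.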

How the results depend on the processing

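RLE scaling, total counts, no filter, DESeq2 and limma-voom gave 2006 to 2991 genes with a difference between the days, against 2380, and DESeq2 gave 126 reversing genes in place of 202. With all 12 libraries the counts were 94 for the difference, 783 for Day 12, 2975 for Day 16, 76 appearing, 5 fading and 7 reversing, and with 11 libraries 1564 for the difference, 309 fading and 121 reversing; the cause was not tested. With an effect defined by an absolute log2 fold change of at least 1, 668 genes appeared, 259 faded and 67 reversed. Leaving out each library gave 1119 to 2664 genes for the difference, 2954 to 5869 for Day 12, 5257 to 8009 for Day 16, 477 to 1147 appearing, 189 to 491 fading and 82 to 240 reversing. The appearing genes numbered 548 and 649 without NP-IWP2 libraries 1 and 2 of Day 12, 676 without NP-IWP2 library 2 of Day 16, and 694 and 477 without P-DF libraries 3 and 4 of Day 16. The fading genes numbered 211, 189, 295 and 260 and the genes for the difference 1119, 1218, 1481 and 1142 without NP-IWP2 1 and 2 of Day 12 and P-DF 3 and 4 of Day 16. The reversing genes numbered 82 without either NP-IWP2 library of Day 12 and 108 without P-DF library 4 of Day 16, and the Day 12 calls 3418 and 2954 without NP-IWP2 libraries 1 and 2 of Day 12. The difference for TNNT2, -0.06 and not called, was 0.058 without NP-IWP2 2 of Day 12, 0.041 without P-DF 4 of Day 12, 0 without NP-IWP2 2 of Day 16 and 0.156 without P-DF 4 of Day 16, within a range of -0.256 to 0.156 over the libraries left out. With the library number as a replicate block the difference was called in 2725 genes, but the libraries share only a number: deviations of same-numbered libraries correlated at 0.0895 in NP-IWP2 and -0.00334 in P-DF cells. The block cannot give the effect of a single day or the classes. Of 77 called genes given with values, 20 were called in all 16 alternatives, 49 lost the call with all 12 libraries only and 8 in others too, and all 77 kept their sign. A kept sign is no independent support, because these fits share libraries with the one that selected the genes. With 2 libraries a group, depth and replicate number limit genes near 0.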
